A study of Mus musculus with 24 samples.

Results

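OT-I CD8+ T cells recovered from the lungs of transplanted mice on day 4 (5 arrays, lung 1 to lung 5) were compared with OT-I CD8+ T cells taken from the graft on day 0 (4 arrays, graft 1 to graft 4). These 9 arrays were picked by their labels out of the 24 arrays of a mouse study of acute graft-versus-host disease. The other 15 arrays, 5 each from blood, liver and intestine on day 4, were used to show where lung differed from the rest. In both groups the donor strain was C57BL/6-Tg(TcraTcrb) 1100Mjb/J, known as OT-I, in which CD8+ T cells bear a single transgenic receptor for an ovalbumin peptide. The OT-I cells carried the CD45.1 allele, and the labels give CD45.2 to everything else in the graft and to the recipients. The lung cells had been in Act-mOVA recipients (C57Bl/6-Tg(CAG-OVA)-916Jen/J), which received 11 Gy of total body irradiation in 2 fractions of 5.5 Gy and then OT-I bone marrow and splenocytes. The graft samples are labelled with the day of transplantation, and both groups are labelled female and 8 to 16 weeks old. Both were isolated through CD45.1 with magnetic beads, with no sort on CD8 described, and 300 pg of RNA of each sample was amplified linearly in 2 rounds and labelled with Cy3. In this model the CAG promoter drives ovalbumin in most tissues, so the antigen is not particular to the lung, and all transferred CD8+ T cells share 1 receptor. The labels do not tie samples to separate animals, so the p-values below measure the spread between these samples, which may be technical.

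A resting CD8+ T cell that recognises its peptide on major histocompatibility complex (MHC) class I, with costimulation, grows and then divides fast. It takes up more amino acids and glucose, builds nucleotides and proteins, and fills granules with granzymes that kill target cells. In graft-versus-host disease, donor T cells activated in this way enter the tissues of the recipient and injure them. The lung itself holds alveolar macrophages, which clear surfactant, and epithelial cells that secrete surfactant proteins.

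Levels are given as scaled log2 intensity, the log2 of the processed signal of a probe minus the 75th percentile over the gene probes of the same array. They are listed in the order lung 1 to lung 5 and then graft 1 to graft 4, and levels of different probes cannot be set against each other. A difference is lung minus graft on the log2 scale, ± the standard error (SE) of 1 limma fit over all 24 arrays, with p-values adjusted by Benjamini and Hochberg over 9384 genes. The fit takes 1 spread per gene for all 5 groups. The median SD over genes was 0.489 in lung, 0.3 in graft and 0.606 in intestine, so the SE can be too small for genes whose lung arrays are widely spread. A gene was called higher or lower at an adjusted p under 0.05. A probe is well above background where the scanner software marks it so. Where a probe was not well above background on any array of 1 group, only a bound on the fold is given ("at least"): the mean of the brighter group against the lowest level that counted as well above background on the arrays of the dimmer group, or the probe's own level if that was higher. Probe positions are those of the array files on mm9, for which no gene annotation was used here.

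The T cell label was checked first. Cd8a, which encodes a chain of the CD8 co-receptor, had levels of 4.31, 3.93, 4.02, 2.89 and 3.94 in lung, against 3.94, 3.66, 3.61 and 4.45 in graft, and its difference of -0.10 ± 0.46 was not called (adjusted p = 0.882). Its partner Cd8b1 differed by -0.07 ± 0.55 (adjusted p = 0.931), and Cd4, the co-receptor of helper T cells, by -0.27 ± 0.24 (adjusted p = 0.387), while a second Cd4 probe was called lower (-4.04, adjusted p = 0.00209 over all tested probes). Cd3e, a chain of the T cell receptor complex, was called higher (0.84 ± 0.30, adjusted p = 0.0316), but under none of the other 5 scalings described below. Groups overlapped for Cd8a, Cd8b1, Cd3e and the Cd4 probe used. The 8 T cell markers Cd8a, Cd8b1, Cd3e, Cd3d, Cd3g, Cd2, Lck and Thy1 were well above background on each of the 9 arrays, and their summed linear level was 409, 404, 572, 368 and 544 in lung, against 318, 283, 335 and 446 in graft. Between 24.3% and 34.4% of gene probes were well above background on the lung arrays, and between 28.4% and 36.4% on the graft arrays. The precision is set by how few arrays each group has. Pairs of lung arrays correlated across genes by 0.849 to 0.961 and pairs of graft arrays by 0.938 to 0.973, where genes are not independent. Lung 4 lay apart, with a mean correlation of 0.892 to the other lung arrays, against 0.910 to 0.932 for the others, and results are repeated without it. Each lung array lay on a slide shared with the blood, liver and intestine arrays of the same number, while all 4 graft arrays lay on 1 other slide scanned on another day, so that slide and group cannot be told apart in any difference between lung and graft.

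Of 9384 tested genes, 2430 (25.9%) were higher in lung than in graft and 1080 (11.5%) lower, in all 37.4%, and the median difference over all tested genes was 0.19. Counts of called members in every list below are to be read next to these shares. All 5 lung arrays lay above all 4 graft arrays for 1757 of the genes called higher, and below them for 923 of those called lower. Over all tested genes, called or not, 20.8% had every lung array above every graft array and 12.5% had every lung array below. Without lung 4, 2555 genes (27.2%) were higher and 1063 (11.3%) lower.

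The split between higher and lower calls depended on how the arrays were scaled. It was 2319 higher and 838 lower with normexp background correction, 1925 and 1713 after quantile normalisation, 1922 and 1712 in the authors' deposited log2 table, 1531 and 2480 with centring on the median of probes detected on all arrays, and 1373 and 2488 with the 75th percentile of those probes. The median over all genes moved with it, to 0.18, -0.03, -0.03, -0.30 and -0.31 in the same order. Calls made in the same direction under all 6 scalings numbered 1220 higher (13% of all tested genes) and 806 lower (8.59%). Counts below of list members called in all 6 are to be read next to these shares. Centring each array on the 8 T cell markers, an alternative added after seeing the data, gave 1542 higher (16.4%) and 1213 lower (12.9%). Values below use the first scaling, and a gene said to hold in all scalings was called in the same direction in each of these 6.

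**Figure D1:**
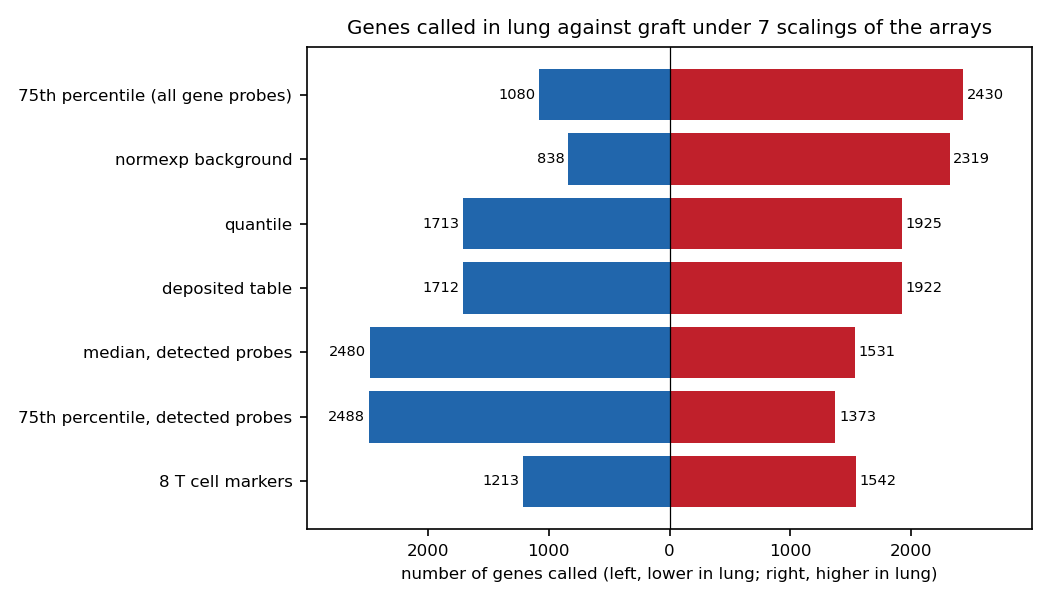
Number of genes called in lung against graft under 7 scalings of the arrays, on a linear axis. Bars to the right count genes higher in lung and bars to the left genes lower in lung, from 2430 and 1080 with the 75th percentile of all gene probes to 1373 and 2488 with the 75th percentile of the detected probes.

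The granule gene Gzmb and the cytokine gene Ifng were among the largest differences. Gzmb, which encodes granzyme B, a protease that triggers apoptosis in target cells, had levels of 5.93, 5.53, 5.38, 3.21 and 3.96 in lung, against -2.70, -2.83, -2.91 and 0.67 in graft (mm9 chr14:56877916-56877975), a difference of 6.74 ± 0.70 (adjusted p = 1.72e-07). All lung arrays lay above all graft arrays, lung 4 was the lowest of the lung arrays, and graft 4 stood above the other graft arrays. Ifng, the gene of the cytokine interferon gamma, likewise had its lowest lung level in lung 4 and its highest graft level in graft 4, with 5.54, 5.75, 4.86, 3.49 and 4.22 in lung, against -1.46, -2.70, -3.25 and 1.42 in graft (mm9 chr10:117882841-117882900), a difference of 6.27 ± 0.74 (adjusted p = 8.37e-07). Serpinb6b, a member of a family of protease inhibitors, differed by 4.83 ± 0.46 (adjusted p = 6.74e-08), and Fasl, the gene of a death ligand, by 2.24 ± 0.51 (adjusted p = 0.00135). Ctsc, whose product cathepsin C activates granzymes, was higher by 1.96 ± 0.42 (adjusted p = 8.50e-04).

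Not every effector gene was higher. Gzmm, the gene of granzyme M, had 0.02, -0.42, -2.01, 0.25 and -1.16 in lung, against 4.55, 4.93, 2.82 and 3.20 in graft, a difference of -4.54 ± 0.55 (adjusted p = 1.20e-06), with every lung array below every graft array. Of the genes named after their values were seen, Prf1, which encodes the pore-forming perforin, differed by -0.24 ± 0.59 (adjusted p = 0.77), Gzmk by -0.05 ± 0.93 (adjusted p = 0.974) and Tnf by -0.53 ± 0.37 (adjusted p = 0.276), and none of these was called. In the list of cytotoxic granules and death ligands, 9 of 16 tested members were called higher and 1 lower (median log2 difference 1.04), and 5 of those higher held in all scalings. Among T cell cytokines, 3 of 7 tested members were called higher and 0 lower (median log2 difference -0.52), next to 25.9% and 11.5% over all genes. The called ones were Ifng, Ltb, which encodes a lymphotoxin chain (1.41 ± 0.41, adjusted p = 0.0086), and Il17a, which was at least 2.62-fold higher (adjusted p = 0.00358). Xcl1, a chemokine that draws dendritic cells, was the called-higher member of 8 tested chemokines of T cells, at 3.63, 3.83, 2.47, 2.91 and 3.60 in lung, against 1.15, 2.06, 0.55 and 0.62 in graft (2.19 ± 0.51, adjusted p = 0.00176). Ccl5, a chemokine of effector and memory T cells, was the member called lower (-1.77 ± 0.60, adjusted p = 0.0223), and that call ended without lung 2, without lung 4 or without graft 2.

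**Figure D2:**
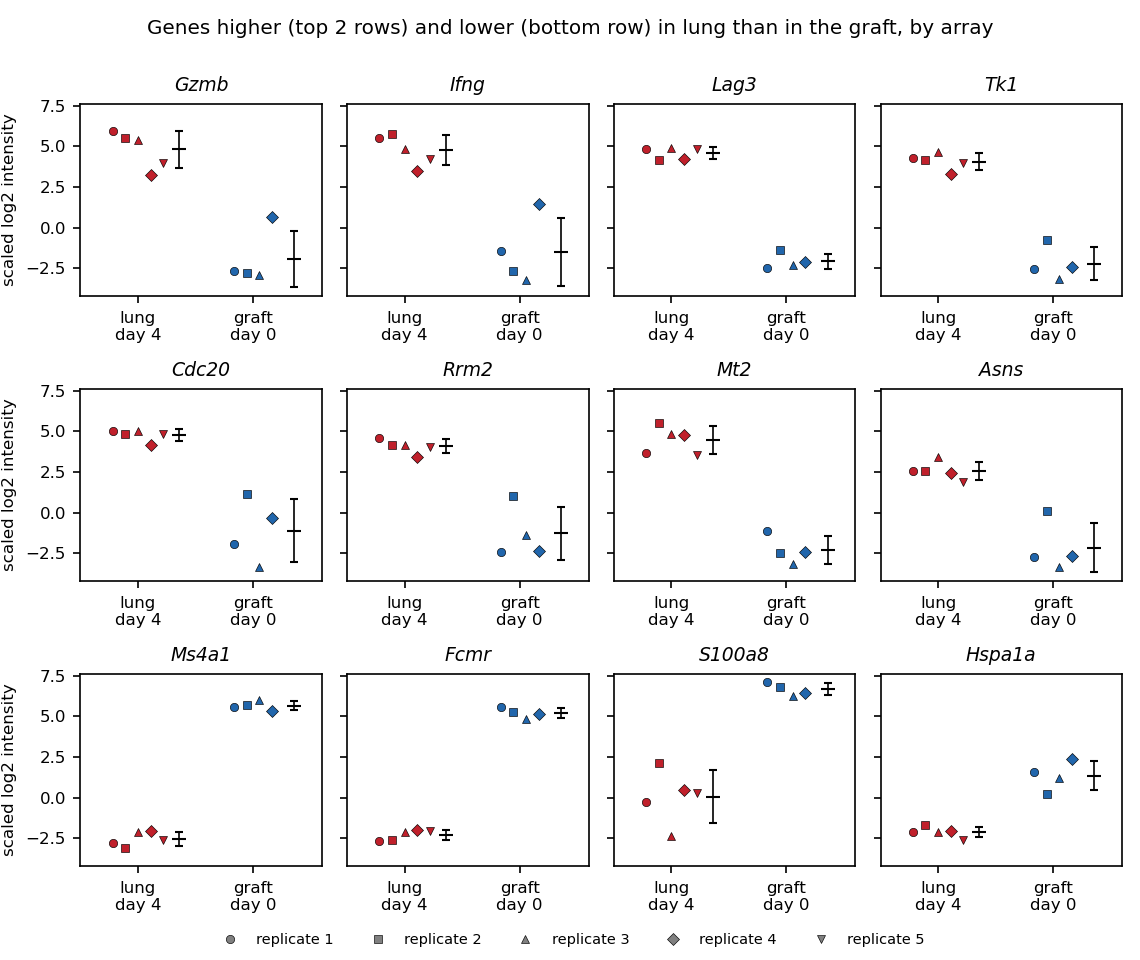
Scaled log2 intensity of 12 genes in each lung array (left, red) and each graft array (right, blue), with a marker shape per replicate and the mean and SD beside each group. In the upper rows, Gzmb to Asns, every lung point lies above every graft point, and in the bottom row, Ms4a1, Fcmr, S100a8 and Hspa1a, every lung point lies below.

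Genes of cell division were higher as a group. Of 40 tested genes of mitosis and cyclins, 30 were called higher and 0 lower, with a median difference of 1.95, against 0.19 over all genes. Cdc20, an activator of the ubiquitin ligase that ends mitosis, had 5.04, 4.82, 5.01, 4.15 and 4.85 in lung, against -1.92, 1.11, -3.36 and -0.32 in graft (mm9 chr4:118105534-118105593), a difference of 5.90 ± 0.57 (adjusted p = 7.55e-08). Ccna2, the gene of cyclin A2, which drives S phase and entry into mitosis, had 4.24, 3.92, 4.03, 3.33 and 4.14 in lung, against -2.41, 0.78, -3.17 and -2.49 in graft (5.75 ± 0.56, adjusted p = 7.67e-08). In both genes the lung arrays lay above all graft arrays, lung 4 was the lowest lung array and graft 2 the highest graft array. Ccnb2, a cyclin of mitosis, was at least 12-fold higher (adjusted p = 7.41e-08), Ncaph, a subunit of the condensin complex that compacts chromosomes, at least 15-fold (adjusted p = 1.26e-09), and Bub1, a kinase of the spindle checkpoint, at least 3.33-fold (adjusted p = 7.55e-08). 24 of the 30 held in all scalings, and 30 were called higher without lung 4.

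In the DNA replication machinery, 26 of 32 tested members were called higher and 1 lower (median log2 difference 1.74), and 20 of those higher held in all scalings. Orc6, a subunit of the complex that marks replication origins, had 3.95, 4.14, 4.43, 3.44 and 3.77 in lung, against 0.70, 1.77, 1.31 and 0.91 in graft (2.78 ± 0.27, adjusted p = 7.86e-08). Rfc4, a subunit of the clamp loader, differed by 3.30 ± 0.33 (adjusted p = 1.04e-07). The polymerase genes Pola1 and Pole were at least 4.4-fold (adjusted p = 1.28e-08) and at least 8.94-fold (adjusted p = 4.12e-08) higher, and Gins1, part of the replicative helicase, at least 6.9-fold (adjusted p = 1.09e-08). The called-lower member was Gins3, from the same helicase complex, at 0.14, 0.18, 0.69, -2.20 and -0.97 in lung, against 2.53, 1.64, 2.34 and 2.07 in graft (-2.58 ± 0.53, adjusted p = 5.36e-04). Its lung arrays all lay below the graft arrays, and lung 4 was the lowest.

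Enzymes that supply deoxynucleotides and folate followed, where 12 of 19 tested members were called higher and 0 lower (median log2 difference 1.14), and 7 of those higher held in all scalings. Tk1, thymidine kinase, was at least 27.1-fold higher (adjusted p = 1.98e-09), with 4.26, 4.13, 4.64, 3.28 and 3.96 in lung, against -2.56, -0.74, -3.14 and -2.45 in graft, but a second Tk1 probe differed by -0.04 (adjusted p = 0.892). Rrm2, the small subunit of ribonucleotide reductase, which makes deoxynucleotides, had 4.61, 4.13, 4.17, 3.39 and 4.06 in lung, against -2.44, 1.03, -1.41 and -2.34 in graft (5.36 ± 0.50, adjusted p = 4.31e-08), and its large subunit Rrm1 differed by 3.20 ± 0.30 (adjusted p = 4.31e-08). Graft 2 was again the highest graft array for Tk1 and Rrm2. Dut, which removes dUTP, was at least 13-fold higher (adjusted p = 1.18e-10).

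The promoters of Cdc20 and Ccnb2 are shown because cell cycle genes are known for CCAAT boxes, bound by NF-Y, and for the cell cycle genes homology region (CHR), bound by the DREAM complex and B-Myb. Each line gives the 250 bases upstream of the start of the gene in RefSeq on GRCm38.p6, 5′ to 3′ on the strand of the gene, with matches to CCAAT and TTTGAA on either strand in capitals. The Cdc20 stretch is chr4:118437344-118437593 on the minus strand, and that of Ccnb2 is chr9:70421555-70421804 on the minus strand.
Cdc20: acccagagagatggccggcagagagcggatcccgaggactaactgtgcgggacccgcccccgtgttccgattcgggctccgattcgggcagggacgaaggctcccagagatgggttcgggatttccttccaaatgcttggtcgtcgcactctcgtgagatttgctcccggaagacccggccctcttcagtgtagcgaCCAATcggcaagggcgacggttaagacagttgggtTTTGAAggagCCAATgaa
Ccnb2: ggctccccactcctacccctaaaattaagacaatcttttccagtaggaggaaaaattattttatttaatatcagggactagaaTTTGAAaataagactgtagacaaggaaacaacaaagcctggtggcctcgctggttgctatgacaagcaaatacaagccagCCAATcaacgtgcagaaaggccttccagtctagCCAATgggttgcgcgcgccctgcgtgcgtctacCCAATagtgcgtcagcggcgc
Cdc20 has 2 matches to CCAAT and 1 to TTTGAA, and Ccnb2 has 3 and 1. CCAAT was present in 34.464% of 27025 promoters of this length, in 24 of 33 promoters of tested mitosis and cyclin genes (72.727%) and in 17 of 25 of tested replication genes (68%). TTTGAA was present in 16.274% of all promoters and in 9 of 33 of the mitosis and cyclin genes (27.273%), but in 3 of 25 of the replication genes (12%). A match describes letters in this window and is not evidence of binding.

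Mt2 was among the genes called higher with no overlap between the groups. It encodes metallothionein 2, a small protein that binds zinc and copper. Its levels were 3.68, 5.52, 4.85, 4.75 and 3.53 in lung, against -1.11, -2.50, -3.14 and -2.44 in graft (mm9 chr8:96697371-96697430), where it was not well above background, and it was at least 36.1-fold higher (adjusted p = 1.12e-07). Mt1, its neighbour and close relative, named after its values were seen, differed by 3.86 ± 0.56 (adjusted p = 1.25e-05). The Mt2 promoter is shown for its metal response elements, the sites of the zinc-sensing factor MTF1. Capitals mark matches to the core letters TGCACNC or TGCGCNC on either strand in chr8:94172368-94172617 on the plus strand, GRCm38.p6, 250 bases upstream of the RefSeq start.
Mt2: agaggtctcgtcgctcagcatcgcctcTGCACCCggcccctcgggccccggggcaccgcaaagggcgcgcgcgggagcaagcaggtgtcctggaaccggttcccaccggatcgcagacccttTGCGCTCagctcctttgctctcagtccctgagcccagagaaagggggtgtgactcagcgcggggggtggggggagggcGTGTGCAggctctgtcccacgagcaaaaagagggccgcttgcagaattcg
There were 3 matches, and 21.273% of the 27025 promoters held at least 1 match.

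Several enzymes that make amino acids were higher in lung. In the list of amino acid supply and ATF4 targets, 7 of 20 tested members were called higher and 2 lower (median log2 difference 0.47), next to 25.9% and 11.5% over all genes, and 4 and 1 held in all scalings. Psat1, an enzyme of serine synthesis, had 4.201, 3.97, 4.92, 3.49 and 3.89 in lung, against 0.14, 1.54, 0.43 and 0.19 in graft (3.52 ± 0.38, adjusted p = 3.01e-07), and the other enzymes of that pathway, Psph and Phgdh, differed by 1.93 ± 0.32 (adjusted p = 7.00e-05) and 1.42 ± 0.30 (adjusted p = 7.66e-04). The other Phgdh probes, placed on chromosome 3 by the array files, differed by 0.85, not called, and 1.91, while the probe used is placed on chromosome 17. Asns, which makes asparagine, had 2.56, 2.57, 3.42, 2.45 and 1.85 in lung, against -2.73, 0.09, -3.32 and -2.68 in graft (4.73 ± 0.55, adjusted p = 7.29e-07), with all lung arrays above the graft arrays and graft 2 highest among these. The called-lower members were the transporter gene Slc1a4, whose probe is described below, and Atf4, the gene of the transcription factor that induces many of these enzymes (-0.83 ± 0.27, adjusted p = 0.0195), a call that ended without lung 4 or without graft 3. The Asns promoter is shown for the nutrient-sensing element that ATF4 is known to bind, TGATGAAAC, in capitals, searched on both strands, in chr6:7693210-7693459 on the minus strand, GRCm38.p6, 250 bases upstream of the RefSeq start.
Asns: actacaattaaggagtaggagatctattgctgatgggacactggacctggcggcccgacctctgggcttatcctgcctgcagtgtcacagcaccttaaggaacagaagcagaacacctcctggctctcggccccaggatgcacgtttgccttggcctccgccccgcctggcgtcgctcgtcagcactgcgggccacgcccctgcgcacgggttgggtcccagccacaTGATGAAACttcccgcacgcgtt
Asns has 1 match, and 42 of 27025 promoters (0.155%) held this element.

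Protein synthesis genes differed by class. Of aminoacyl-tRNA synthetases, which charge transfer RNAs, 12 of 15 tested members were called higher and 0 lower (median log2 difference 1.22), and 7 of those higher held in all scalings. Wars, for tryptophan, had 2.90, 4.41, 1.99, 1.49 and 3.42 in lung, against 0.01, 0.33, 0.67 and 0.96 in graft (2.35 ± 0.40, adjusted p = 8.18e-05), but a second Wars probe differed by -0.22 (adjusted p = 0.455). Gars, for glycine, differed by 1.22 ± 0.21 (adjusted p = 8.96e-05), and Iars, for isoleucine, was at least 2.85-fold higher (adjusted p = 1.77e-04). Of cytosolic ribosomal proteins, 1 of 60 tested members were called higher and 7 lower (median log2 difference -0.22), so that the share called higher was below the 25.9% over all genes and the share called lower close to the 11.5%, while T cell marker scaling gave 16 lower. The median of this list minus that of all genes was -0.41, and it was 0.074 after quantile normalisation and 0.069 in the authors' deposited log2 table. Rps2 was the member called higher (2.20 ± 0.37, adjusted p = 7.20e-05), while Rps19 (-2.10 ± 0.44, adjusted p = 5.99e-04) and Rps23 (-1.16 ± 0.28, adjusted p = 0.00248) were lower, and 4 members were called lower without lung 4. Ribosomal protein genes have many near-identical pseudogenes, with which a probe may share signal.

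In ribosome biogenesis, 4 of 26 tested members were called higher and 3 lower (median log2 difference 0.21), and without lung 4 the counts were 8 and 3. Bop1, needed for the large subunit, differed by 1.36 ± 0.20 (adjusted p = 1.21e-05). The nucleolar protein genes Ncl (-1.73 ± 0.31, adjusted p = 1.58e-04) and Npm1 (-1.23 ± 0.25, adjusted p = 5.66e-04) were lower by the probes used, but a second Npm1 probe was higher, by 1.40 (adjusted p = 0.00376). Proteasome subunits, which degrade tagged proteins, were higher in part: 15 of 29 tested members were called higher and 1 lower (median log2 difference 0.63), and 8 of those higher held in all scalings. Psmd7, of the lid, had 4.31, 4.19, 4.37, 3.87 and 4.21 in lung, against 2.69, 2.95, 2.38 and 2.88 in graft (1.47 ± 0.20, adjusted p = 5.91e-06), while Psmd13, another lid subunit, differed by -0.87 ± 0.21 (adjusted p = 0.00226). In neither gene did the groups overlap.

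Among heat-shock and chaperonin genes, 6 of 18 tested members were called higher and 2 lower (median log2 difference 0.48), next to 25.9% and 11.5% over all genes. Hspa1a, the stress-inducible Hsp70, was not well above background on any lung array and was at least 3.69-fold lower in lung (adjusted p = 1.97e-04), with -2.14, -1.67, -2.12, -2.06 and -2.61 in lung, against 1.59, 0.20, 1.22 and 2.38 in graft. The cytosolic chaperone Hsp90aa1 differed the other way, by 1.28 ± 0.21 (adjusted p = 5.29e-05), as did the chaperonin subunit Tcp1 (1.63 ± 0.27, adjusted p = 5.35e-05). Among unfolded protein response genes, 2 of 17 tested members were called higher and 2 lower (median log2 difference -0.18). Dnajb9, a co-chaperone of the endoplasmic reticulum, was at least 1.26-fold lower (adjusted p = 2.37e-05), and Manf, secreted under stress of that compartment, was higher by 1.19 ± 0.27 (adjusted p = 0.00153).

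Genes of energy metabolism were called higher more often than lower, as were all tested genes (25.9% and 11.5%), with exceptions in every list. In glycolysis and the pentose phosphate pathway, 12 of 24 tested members were called higher and 2 lower (median log2 difference 0.72), and 6 of those higher held in all scalings. Tpi1, triosephosphate isomerase, had 5.85, 5.77, 5.26, 5.15 and 5.11 in lung, against 2.77, 3.29, 2.63 and 3.03 in graft (2.50 ± 0.21, adjusted p = 1.28e-08), but a second Tpi1 probe differed by 0.02 (adjusted p = 0.938). Gapdh, often used as a reference gene, differed by 1.51 ± 0.26 (adjusted p = 9.63e-05), Pgk1 by 1.51 ± 0.28 (adjusted p = 2.20e-04) and Ldha, which makes lactate, by 1.21 ± 0.24 (adjusted p = 3.06e-04). Neither of the other Ldha probes was called, at -0.39 and 0.35. The array files place the Gapdh probe used on chromosome X and most other Gapdh probes on chromosome 6, where 1 was not called (0.82, adjusted p = 0.315 over all tested probes). They place the Pgk1 probe used on chromosome 3 and a second one, also called higher (1.39), on chromosome X. Pdk1, a kinase that restrains entry of pyruvate into mitochondria, was lower (-1.16 ± 0.28, adjusted p = 0.00236), as was Taldo1 of the pentose phosphate pathway (-0.71 ± 0.21, adjusted p = 0.0111).

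Of the 54 respiratory chain and ATP synthase genes, all tested, 27 were higher and 3 lower, with a median of 0.61, and 14 of the higher ones held in all scalings. Uqcrc1, a core subunit of complex III, had 5.18, 4.86, 5.07, 4.62 and 4.98 in lung, against 2.55, 2.40, 2.15 and 2.89 in graft (2.44 ± 0.27, adjusted p = 3.45e-07), and Ndufb8 of complex I differed by 2.04 ± 0.23 (adjusted p = 6.00e-07). Uqcrb, from the same complex III, was lower, with 5.34, 5.13, 5.00, 5.03 and 5.16 in lung, against 5.84, 6.00, 6.22 and 6.02 in graft (-0.89 ± 0.17, adjusted p = 3.49e-04). Lung and graft arrays did not overlap in any of these genes. In the tricarboxylic acid cycle, 9 of 21 tested members were called higher and 1 lower (median log2 difference 0.46), of which 4 and 1 held in all scalings, among them Idh3a (1.57 ± 0.25, adjusted p = 4.16e-05) and Sdhb (1.26 ± 0.24, adjusted p = 2.80e-04), with the cytosolic malate dehydrogenase Mdh1 lower (-0.99 ± 0.25, adjusted p = 0.00377). Ogdh was called higher by the probe used (1.32 ± 0.25, adjusted p = 2.54e-04) and lower by another probe (-1.29, adjusted p = 0.0389).

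In fatty acid oxidation, 12 of 15 tested members were called higher and 1 lower (median log2 difference 1.34), and 6 of those higher held in all scalings. Cpt1a, which admits fatty acids to mitochondria, was at least 6.26-fold higher (adjusted p = 6.25e-06), but a second Cpt1a probe differed by -0.087 (adjusted p = 0.843). Echs1, a hydratase of the oxidation spiral, differed by 1.70 ± 0.28 (adjusted p = 6.56e-05), while Acadm, the medium-chain dehydrogenase, was lower (-1.17 ± 0.34, adjusted p = 0.00884). In cholesterol and fatty acid synthesis, 8 of 17 tested members were called higher and 1 lower (median log2 difference 0.64), but only 1 of those called higher held in all scalings. Scd1, the desaturase that makes oleate, was not well above background on any lung array and was at least 1.59-fold lower (adjusted p = 4.32e-04). Among hypoxia-inducible genes, 3 of 9 tested members were called higher and 2 lower (median log2 difference 0.95), next to 25.9% and 11.5% over all genes. Ddit4, an inhibitor of mTORC1 signalling, differed by 2.29 ± 0.32 (adjusted p = 8.46e-06) and Slc2a1, the glucose transporter GLUT1, by 2.08 ± 0.43 (adjusted p = 5.39e-04).

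**Figure D3:**
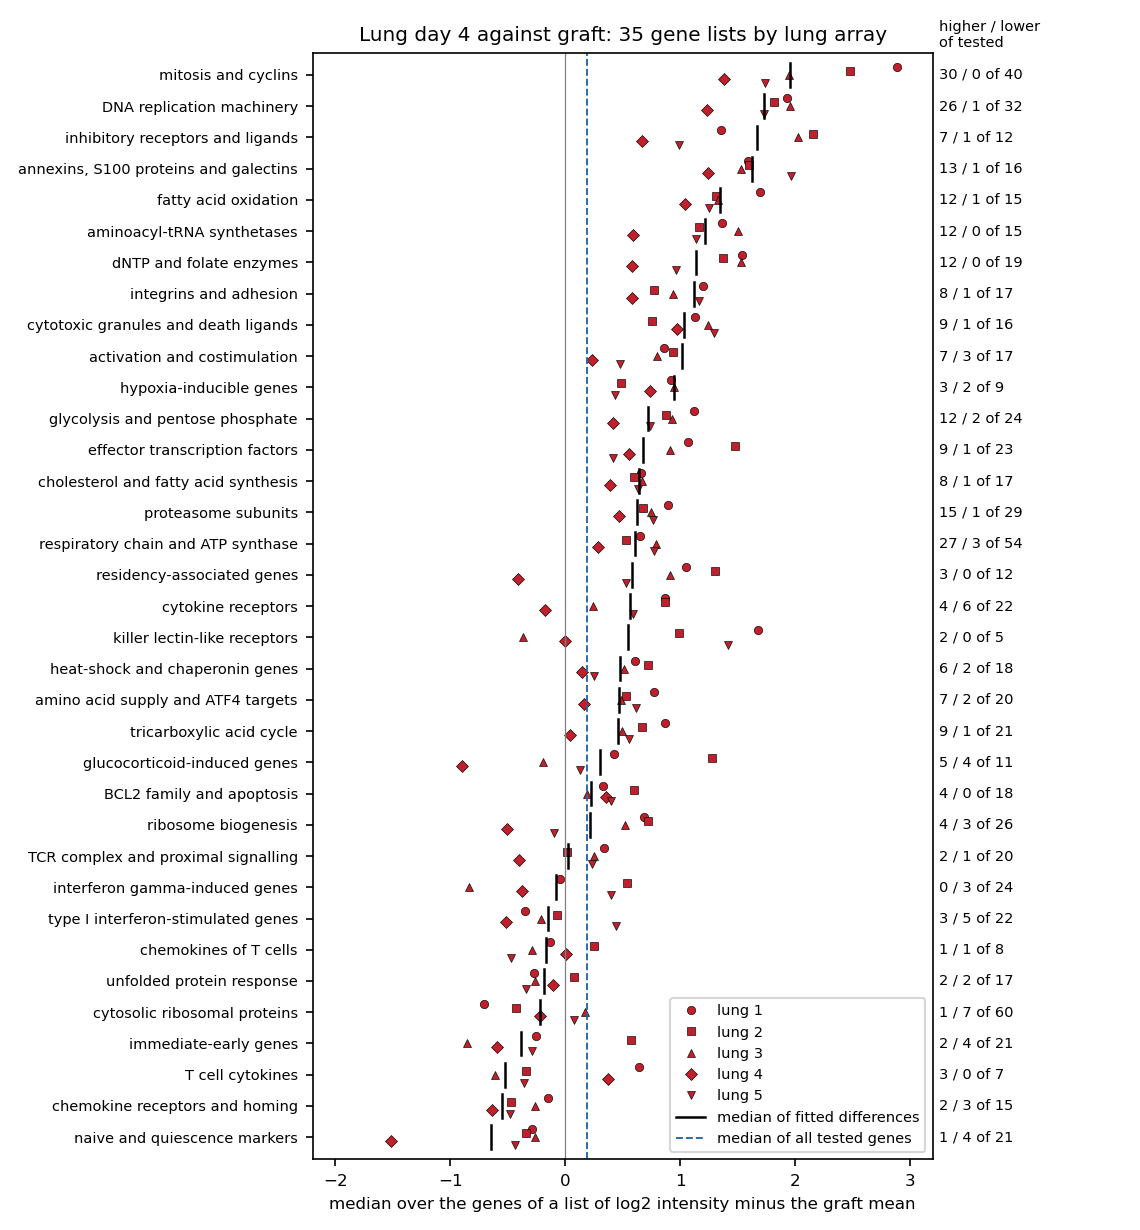
Median over the genes of each of 35 lists of the scaled log2 intensity of a lung array minus the graft mean, with 1 marker per lung array, the median of the fitted differences as a black bar and the median of all tested genes, 0.19, as a dashed line. The counts on the right give genes called higher and lower of those tested, and the mitosis and replication lists lie highest, with medians of 1.95 and 1.74.

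Receptors that restrain T cells were higher. Lag3, an inhibitory receptor for MHC class II, had 4.85, 4.12, 4.89, 4.18 and 4.86 in lung, against -2.49, -1.41, -2.31 and -2.12 in graft, and was at least 39.1-fold higher (adjusted p = 6.52e-10). Havcr2, which encodes TIM-3, was at least 1.72-fold higher (adjusted p = 7.85e-04). Ctla4, a competitor of CD28, had 3.97, 4.57, 4.85, 5.40 and 5.32 in lung, against 2.25, 3.24, 4.52 and 1.14 in graft (2.03 ± 0.54, adjusted p = 0.00503). Graft 3 overlapped the lung arrays for Ctla4. Of the inhibitory receptors and ligands, 7 of 12 tested members were called higher and 1 lower (median log2 difference 1.67), and 5 of those higher held in all scalings.

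Of activation and costimulation genes, 7 of 17 tested members were called higher and 3 lower (median log2 difference 1.02), and 4 of those higher held in all scalings. Icos, a costimulatory receptor, had 4.47, 4.27, 5.69, 3.03 and 4.25 in lung, against 0.26, 1.13, 0.89 and 1.25 in graft (3.46 ± 0.50, adjusted p = 1.37e-05), Cd28, the main costimulatory receptor of T cells, differed by 3.23 ± 0.48 (adjusted p = 1.73e-05), and Il2ra, the alpha chain of the interleukin 2 receptor, was at least 5.32-fold higher (adjusted p = 1.15e-05). Among cytokine receptors, 4 of 22 tested members were called higher and 6 lower (median log2 difference 0.57), next to 25.9% and 11.5% over all genes. Without lung 4 the counts were 8 and 4. With the GT repeat and GGGGG probes described below left out, they were 4 and 4 of 20 tested. For activation and costimulation genes they were then 8 and 2 of 17. Il2rb, the beta chain, had 6.66, 6.61, 6.96, 6.84 and 7.06 in lung, against 5.30, 5.92, 6.20 and 5.33 in graft (1.14 ± 0.25, adjusted p = 9.79e-04), and Il1rl1, the receptor of interleukin 33, was at least 3.29-fold higher (adjusted p = 4.98e-05).

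Tnfrsf9, Il15ra and Slc1a4 need their probes shown. Tnfrsf9 encodes the costimulatory receptor 4-1BB, Il15ra the receptor chain that presents interleukin 15 and Slc1a4 an amino acid transporter. The probe used for Tnfrsf9 had 3.84, 4.46, 3.04, 3.62 and 3.79 in lung, against 6.83, 7.17, 7.71 and 7.20 in graft (-3.48 ± 0.45, adjusted p = 2.66e-06), whereas a second Tnfrsf9 probe differed by 5.39 in the other direction (adjusted p = 2.18e-08). Il15ra had 3.76, 4.40, 2.99, 3.56 and 3.79 in lung, against 6.70, 6.99, 7.50 and 7.19 in graft (-3.40 ± 0.46, adjusted p = 5.37e-06), nearly the same numbers as the first Tnfrsf9 probe, and Slc1a4 differed by -3.95 ± 0.46 (adjusted p = 8.28e-07). Below are 30 bases of each of these 60-base probes as the array files give them, 5′ to 3′, with the GT repeat in capitals. Their mm9 positions are chr4:150319582-150319641 for Tnfrsf9, chr2:11655416-11655475 for Il15ra and chr11:20202615-20202674 for Slc1a4, with no strand read here.
Tnfrsf9: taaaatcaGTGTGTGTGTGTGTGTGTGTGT
Il15ra: tatgtatGTGTGTGTGTGTGTGTatgtaaa
Slc1a4: atgtatcaaGTGTGTGTGTGTatgtgtgtg
Of 109 tested genes whose probe holds 5 or more GT in a row, 102 (93.6%) were called lower and 1 higher, with a median difference of -2.51. Centred on the mean of all 24 arrays, the median of these probes was -0.459, 0.047, -0.840, -0.508 and -0.401 in lung, against 1.684, 2.076, 2.513 and 2.078 in graft. Every lung array thus lay below every graft array for this class of sequence as a whole. The differences of Tnfrsf9, Il15ra, Slc1a4 and Il4ra (-1.56), all with such a repeat, go with the probe sequence, and the part of the sequence and of the gene in them was not tested.

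A run of 5 G was the other sequence feature that went with the calls. Of 666 tested genes whose probe holds GGGGG, 261 (39.2%) were called higher and 4 lower, with a median difference of 0.86. Their centred medians were -0.362, 0.336, 0.679, 1.158 and 0.827 in lung, against -0.905, -0.088, 0.589 and -0.885 in graft, so lung 1 lay below graft 2 and graft 3. Pdcd1, which encodes the inhibitory receptor PD-1, and Vstm2b, an immunoglobulin-domain gene, have such probes, of which 30 bases are shown with the run in capitals (mm9 chr1:95935064-95935123 and chr7:48185179-48185238).
Pdcd1: aaggaaaGGGGGatataaccttgacgcaaa
Vstm2b: ttacattttctttGGGGGatttttcttttt
Pdcd1 had 5.63, 5.67, 6.45, 6.24 and 6.33 in lung, against 3.35, 4.48, 5.42 and 3.15 in graft (1.97 ± 0.38, adjusted p = 3.31e-04), and Vstm2b 3.38, 4.43, 4.58, 5.35 and 5.09 in lung, against -2.78, -2.95, 2.15 and -2.82 in graft (6.16 ± 0.81, adjusted p = 3.59e-06), with graft 3 the highest graft array in both. Acadvl (2.03), G6pdx (1.94), Nr4a2 (1.79) and Cldn5 (2.19), called higher, and Isg15 (-1.78) and Ly6d (-1.57), called lower, also have a GGGGG probe. The call of Cldn5 ended without graft 4, and that of Ly6d without lung 1, lung 2, graft 1 or graft 3. With all probes of both kinds left out, an alternative added after seeing the data, 2191 of 8744 genes were called higher and 991 lower, and Tnfrsf9 was represented by its second probe (5.39, adjusted p = 2.17e-08). Of 39 named genes that were called and have other tested probes, all other probes gave the same call for 25, at least 1 was not called for 12, and at least 1 was called in the other direction for 3.

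The calls on migration and adhesion went both ways. Among chemokine receptors and homing molecules, 2 of 15 tested members were called higher and 3 lower (median log2 difference -0.55). Cxcr3, a receptor that leads effector T cells to inflamed tissue, had 5.33, 4.33, 6.05, 4.67 and 5.58 in lung, against 3.77, 3.68, 2.48 and 2.23 in graft (2.15 ± 0.60, adjusted p = 0.00705), and Ccr10, a skin-homing receptor, was at least 2.95-fold higher (adjusted p = 0.00467). Ccr9, which guides T cells to the small intestine, had -1.31, -1.11, 1.05, -0.26 and -0.997 in lung, against 1.57, 1.99, 3.24 and 4.26 in graft (-3.29 ± 0.87, adjusted p = 0.00471), and Cxcr4, a receptor for the bone marrow chemokine CXCL12, differed by -1.82 ± 0.52 (adjusted p = 0.00821). Cxcr5, a receptor of B cells and follicular T cells, differed by -2.55 ± 0.73 (adjusted p = 0.00845), and the graft held B cell transcripts, described below. None of the named chemokine receptors overlapped between the groups.

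Of integrins and adhesion molecules, 8 of 17 tested members were called higher and 1 lower (median log2 difference 1.12), and 3 of those higher held in all scalings. Itgb2 and Itgal, the chains of LFA-1, which binds ICAM-1, differed by 1.59 ± 0.34 (adjusted p = 8.76e-04) and 1.24 ± 0.33 (adjusted p = 0.00458), though a second Itgal probe, at 0.55, was not called. Crtam, an adhesion molecule of activated CD8+ T cells, differed by 2.52 ± 0.57 (adjusted p = 0.00123), and Cd47, which signals against phagocytosis, by 1.30 ± 0.30 (adjusted p = 0.00158). Itgam, whose probe holds a CA repeat, was called higher (1.34 ± 0.43, adjusted p = 0.0173), but not without graft 3, and Itga6 lower (-0.77 ± 0.30, adjusted p = 0.0491), a call that ended without any of 6 single arrays. Of residency-associated genes, 3 of 12 tested members were called higher and 0 lower (median log2 difference 0.58), next to 25.9% and 11.5% over all genes. The called ones were Xcl1, Bhlhe40 (2.57 ± 0.72, adjusted p = 0.00718) and Litaf (1.47 ± 0.44, adjusted p = 0.0117).

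Annexins, S100 proteins and galectins, which bind calcium, membranes or sugars and are abundant in activated T cells and in macrophages, were higher nearly as a block: 13 of 16 tested members were called higher and 1 lower (median log2 difference 1.63), and 10 of those higher held in all scalings. Anxa2 had 6.52, 6.57, 6.52, 6.71 and 7.04 in lung, against 4.21, 4.80, 3.98 and 4.46 in graft (2.31 ± 0.23, adjusted p = 8.78e-08). Lgals3, galectin 3, had 5.70, 5.07, 6.03, 5.95 and 5.85 in lung, against 2.85, 2.28, 2.30 and 2.74 in graft (3.18 ± 0.39, adjusted p = 1.55e-06). In both genes the lung arrays lay close together and clear of the graft arrays, and the part of macrophages in these differences was not tested. S100a10, the partner of annexin A2, differed by 2.13 ± 0.34 (adjusted p = 4.36e-05). Emp1, a membrane protein outside the lists, was at least 20.7-fold higher (adjusted p = 2.45e-08).

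Among effector transcription factors, 9 of 23 tested members were called higher and 1 lower (median log2 difference 0.67), and 7 of those higher held in all scalings. Zbtb32, a repressor induced by activation, had 5.34, 4.76, 4.69, 4.18 and 4.98 in lung, against -0.43, 1.52, -0.55 and 0.33 in graft (4.58 ± 0.45, adjusted p = 8.66e-08). Tox, linked to persistent antigen stimulation, differed by 2.74 ± 0.49 (adjusted p = 1.49e-04), Batf, an AP-1 family factor of effector T cells, by 1.94 ± 0.35 (adjusted p = 1.75e-04), and the chromatin regulators Uhrf1 and Ezh2 by 2.38 ± 0.30 (adjusted p = 2.31e-06) and 2.23 ± 0.43 (adjusted p = 3.02e-04). Tbx21, the gene of T-bet, named after its values were seen, was not called (0.17 ± 0.31, adjusted p = 0.693), and Eomes, its relative, was lower in lung (-1.36, -2.67, -1.05, -0.67 and -1.41 in lung, against 0.24, 0.62, -0.28 and -0.98 in graft, adjusted p = 0.0066). Graft 4 fell among the lung arrays for Eomes, and no lung array was well above background.

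Of naive and quiescence markers, 1 of 21 tested members were called higher and 4 lower (median log2 difference -0.64). Txk, a kinase of resting T cells, had 0.33, 0.15, 0, 0.13 and -0.23 in lung, against 2.11, 1.73, 1.72 and 2.04 in graft (-1.82 ± 0.32, adjusted p = 1.19e-04). Il6ra, a receptor chain for interleukin 6, differed by -3.95 ± 0.89 (adjusted p = 0.00131) and Actn1, an actin crosslinker, by -1.28 ± 0.32 (adjusted p = 0.0028). Il7r, the receptor of the survival cytokine interleukin 7, was called lower (-2.24 ± 0.82, adjusted p = 0.0348), but not without lung 4, lung 5, graft 1, graft 3 or graft 4. Among well-known naive markers, named after their values were seen, Ccr7 (0.08 ± 0.53, adjusted p = 0.922) and Tcf7 (-0.15 ± 0.56, adjusted p = 0.857) were not called.

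Immediate-early genes, which are transcribed within minutes of a stimulus and during cell handling, differed in both directions: 2 of 21 tested members were called higher and 4 lower (median log2 difference -0.38). Jun had 1.51, 2.66, 1.95, 1.91 and 2.08 in lung, against 4.08, 3.84, 4.86 and 4.75 in graft (-2.36 ± 0.36, adjusted p = 2.39e-05), and Ier2 differed by -1.57 ± 0.20 (adjusted p = 2.40e-06). For Egr1 lung 2 lay among the graft arrays, with 3.40, 5.12, 2.46, 2.03 and 2.44 in lung, against 5.58, 4.83, 5.78 and 5.76 in graft (-2.40 ± 0.70, adjusted p = 0.00932). Of glucocorticoid-induced genes, 5 of 11 tested members were called higher and 4 lower (median log2 difference 0.30). Fkbp5, a co-chaperone of the glucocorticoid receptor, had 4.55, 4.13, 4.48, 2.99 and 3.67 in lung, against -0.72, 0.29, 0.39 and 0.80 in graft (3.77 ± 0.44, adjusted p = 6.69e-07), while Il1r2, a decoy receptor, was at least 3.84-fold lower (adjusted p = 0.00349).

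Interferon-stimulated genes did not move together. Of the type I interferon-stimulated genes, 3 of 22 tested members were called higher and 5 lower (median log2 difference -0.15). Bst2, which encodes tetherin, had 1.32, 2.24, 0.63, 1.16 and 1.79 in lung, against 3.49, 3.45, 3.82 and 3.98 in graft (-2.26 ± 0.28, adjusted p = 1.74e-06), and Irf7, a factor that amplifies interferon production, differed by -1.03 ± 0.28 (adjusted p = 0.00504). Ifih1, a sensor of viral RNA, was at least 2.09-fold higher (adjusted p = 5.79e-04). Of interferon gamma-induced genes, 0 of 24 tested members were called higher and 3 lower (median log2 difference -0.08), although Ifng itself was among the largest differences, and without lung 4 the counts were 3 and 2. Tap2, a peptide transporter, differed by -1.10 ± 0.22 (adjusted p = 3.65e-04), and Psmb10, an immunoproteasome subunit, by -0.81 ± 0.22 (adjusted p = 0.00504).

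The counts of the lists that follow stand next to 25.9% called higher and 11.5% called lower over all tested genes. In the T cell receptor complex and proximal signalling, 2 of 20 tested members were called higher and 1 lower (median log2 difference 0.02). In the killer lectin-like receptors, 2 of 5 tested members were called higher and 0 lower (median log2 difference 0.54), the called ones being Klrc1, which encodes the inhibitory receptor NKG2A (2.29 ± 0.42, adjusted p = 1.65e-04), and its partner Klrd1, which encodes CD94 (1.78 ± 0.47, adjusted p = 0.0044). In the BCL2 family and apoptosis, 4 of 18 tested members were called higher and 0 lower (median log2 difference 0.23), among them Bcl2a1d, an antiapoptotic member (2.41 ± 0.35, adjusted p = 1.19e-05).

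Genes of other blood cells were lower in lung. Ms4a1, which encodes CD20 of B cells, was at least 72-fold lower in lung (adjusted p = 1.98e-11), at -2.78, -3.08, -2.10, -2.08 and -2.60 in lung, against 5.57, 5.67, 5.98 and 5.31 in graft. Fcmr, the receptor of immunoglobulin M, was at least 53.6-fold lower (adjusted p = 1.79e-08). Cd79a, a chain of the B cell receptor complex, was at least 86.3-fold lower (adjusted p = 3.75e-06) by the probe used, which the array files place at mm9 chr12:53180558-53180617, whereas a second probe, on chromosome 7, where RefSeq has the gene, differed by -3.30. None of the 3 probes used was well above background on a lung array, and each was on all 4 graft arrays. Of the B cell markers, 0 of 12 tested members were called higher and 10 lower (median log2 difference -5.20), and all 10 held in all scalings. On each lung array 3 or 4 of the 12 were well above background, against 10 to 12 on the graft arrays. A gene was tested if it passed the background filter in any 1 group, so those that passed through graft alone were bound to lean lower in lung. The summed linear level of the 12 was 9.26, 12.3, 18.4, 26.8 and 29.3 in lung, against 338, 335, 309.8 and 271 in graft. Graft cells other than the OT-I T cells are labelled CD45.2, and the selection was for CD45.1.

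Plasma cell genes took the same side, with Jchain, the joining chain of secreted antibodies, at least 38.4-fold lower (adjusted p = 4.84e-04), Mzb1, a chaperone of antibody secretion, at least 14.6-fold lower (adjusted p = 1.42e-06), and the immunoglobulin probes Igh-VJ558 (-7.30 ± 1.45, adjusted p = 3.84e-04, with 8 other probes of that name between -7.96 and -0.89) and Iglv1 (-6.77 ± 1.38, adjusted p = 4.99e-04). Of plasma cell markers, 0 of 5 tested members were called higher and 3 lower (median log2 difference -2.27). Neutrophil and monocyte genes were lower too: 0 of 13 tested members were called higher and 10 lower (median log2 difference -4.60). Of these 13, 2 to 8 were well above background on the lung arrays and 12 or 13 on the graft arrays, so the same limit of the filter applies. S100a8, a calcium-binding protein of neutrophils, had -0.26, 2.12, -2.38, 0.45 and 0.29 in lung, against 7.08, 6.81, 6.26 and 6.43 in graft (-6.60 ± 0.96, adjusted p = 1.35e-05), and Camp, an antimicrobial peptide, 0.28, 1.66, -2.29, -2.27 and -2.79 in lung, against 6.90, 6.75, 5.64 and 5.81 in graft (-7.36 ± 1.11, adjusted p = 2.04e-05). The lung arrays were spread over several log2 units in both, with lung 2 highest, and all lay below the graft arrays. The summed level of the 13 markers was 83, 122, 134, 117 and 130.3 in lung, against 626, 622, 497 and 503 in graft. In such bulk samples, fewer cells of a type and less RNA per cell cannot be told apart, and the part of these cells in the other differences between lung and graft was not tested.

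Antigen presentation and myeloid genes were lower where called in most cases. In the list of dendritic cells and MHC class II, 1 of 11 tested members were called higher and 4 lower (median log2 difference -1.65), with H2-Aa, a class II chain, at least 9.28-fold lower (adjusted p = 5.53e-06). Itgax, the called-higher member (1.18 ± 0.44, adjusted p = 0.0405), was not called without lung 4, without lung 5 or without any 1 of the graft arrays. Of macrophage genes, 0 of 7 tested members were called higher and 3 lower (median log2 difference -2.58), among them Cd5l (-2.58 ± 0.39, adjusted p = 2.29e-05). Cd68, on the same list, was not called by the probe used (1.02), while a second Cd68 probe was called higher (3.48, adjusted p = 6.75e-04 over all tested probes). Aif1, Il1b and Plbd1, genes of myeloid cells, were lower too, with Aif1 at least 12.4-fold lower (adjusted p = 0.00158), Il1b at -5.71 ± 1.28 (adjusted p = 0.00118) and Plbd1 at -5.99 ± 1.13 (adjusted p = 2.22e-04). Of natural killer cell markers, 1 of 6 tested members were called higher and 3 lower (median log2 difference -1.08), and of CD4 T cell markers, 2 of 9 tested members were called higher and 1 lower (median log2 difference -0.25). Of 3 tested erythroid genes, 2 were called lower, the alpha globins Hba-a1 and Hba-a2. Hba-a2 had -1.69, -1.35, 6.02, -2.12 and -2.64 in lung, against 2.79, 7.58, 3.76 and 6.08 in graft (-5.41 ± 1.54, adjusted p = 0.00817), with lung 3 close to graft 4 and the other lung arrays below all graft arrays.

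Several marker lists had 3 or fewer tested genes. Prss34, a basophil protease and the single tested mast cell and basophil gene, was at least 1.45-fold lower (adjusted p = 2.80e-04), and 1 tested gamma delta T cell gene was not called. Treml1 was called higher among 3 platelet and megakaryocyte genes (2.43 ± 0.63, adjusted p = 0.00384), and Apoa2 among 2 hepatocyte genes (1.58 ± 0.63, adjusted p = 0.05), a call that ended without any of 7 single arrays. Fabp1 was called higher among 2 intestinal epithelial genes (at least 4.5-fold, adjusted p = 3.42e-04), with 0.45, 1.81, -2.05, 4.27 and 2.83 in lung, against -2.58, -2.70, -3.12 and -2.45 in graft, highest in lung 4 and lowest in lung 3, which were also the highest and the lowest lung array for the summed alveolar macrophage markers.

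Summed alveolar macrophage and epithelial markers lay above all graft arrays in 4 of the 5 lung samples, the exception being lung 3. Of alveolar macrophage markers, 6 of 13 tested members were called higher and 0 lower (median log2 difference 2.94), or 11 higher without lung 3. Their summed linear level was 246, 204, 7.2, 962 and 620.5 in lung, against 51.4, 63.6, 11.9 and 24.6 in graft, and all 13 were well above background in lung 1, 2, 4 and 5 but only 2 in lung 3. On the graft arrays 6 to 8 were well above background. Genes that passed the filter through lung alone were bound to lean higher in lung. Krt79 and Plet1, a keratin and a surface protein on the marker list, were at least 13.5-fold (adjusted p = 4.26e-05) and at least 13-fold (adjusted p = 2.90e-04) higher, with 3.60, 3.14, -2.20, 5.87 and 4.82 for Krt79 in lung, against -2.51, -2.64, -3.16 and -2.48 in graft. Ear1, an eosinophil-associated ribonuclease, was at least 15.5-fold higher (adjusted p = 1.01e-04), and Lpl, lipoprotein lipase, at least 2.42-fold (adjusted p = 1.31e-04). Lung 3 lay closer to the graft arrays than to the other lung arrays for Krt79 and Plet1.

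Of alveolar and airway epithelial markers, 5 of 10 tested members were called higher and 1 lower (median log2 difference 1.79). Sftpc, surfactant protein C of type II cells, had 4.60, 6.99, 0.04, 5.29 and 4.51 in lung, against 0.01, -0.07, 0.05 and -0.21 in graft (4.34 ± 0.76, adjusted p = 1.14e-04), with lung 2 highest and lung 3 at the graft level. Cbr2, a reductase of airway cells, was at least 5.96-fold higher (adjusted p = 5.91e-04), and Sftpa1 at least 2.04-fold (adjusted p = 4.26e-04). The summed level of the 10 markers was 64.3, 228, 16.1, 130.0 and 102 in lung, against 20.7, 18.5, 12.1 and 18.8 in graft. Endothelial markers gave 3 called higher of 7 tested and 0 lower, with Ramp2, a receptor partner of vessel lining cells, at least 3.89-fold higher (adjusted p = 0.00141) and Egfl7 at 2.94 ± 0.40 (adjusted p = 5.67e-06), and Sparc, of the 2 tested fibroblast genes, at 2.81 ± 0.87 (adjusted p = 0.0136). The summed level of the 7 endothelial markers was 38.1, 144, 71.8, 96.5 and 103 in lung, against 19.4, 37.2, 55.3 and 18.4 in graft, so here lung 3 lay above all graft arrays and lung 1 among them.

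Single lung arrays were looked at for the T cell results. In lung 3, where the summed alveolar macrophage and epithelial markers lay at or below the graft levels, Gzmb stood at 5.38, Ifng at 4.86, Lag3 at 4.89, Cdc20 at 5.01 and Mt2 at 4.85. These genes were named among those with every lung array above every graft array, so their place above graft in lung 3 was fixed by that choice. Without lung 3, 2182 genes were higher and 987 lower. Without lung 3 the respiratory chain count was 19 higher rather than 27, and without lung 4 the counts of the mitosis and replication lists were 30 and 25 higher.

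**Figure D4:**
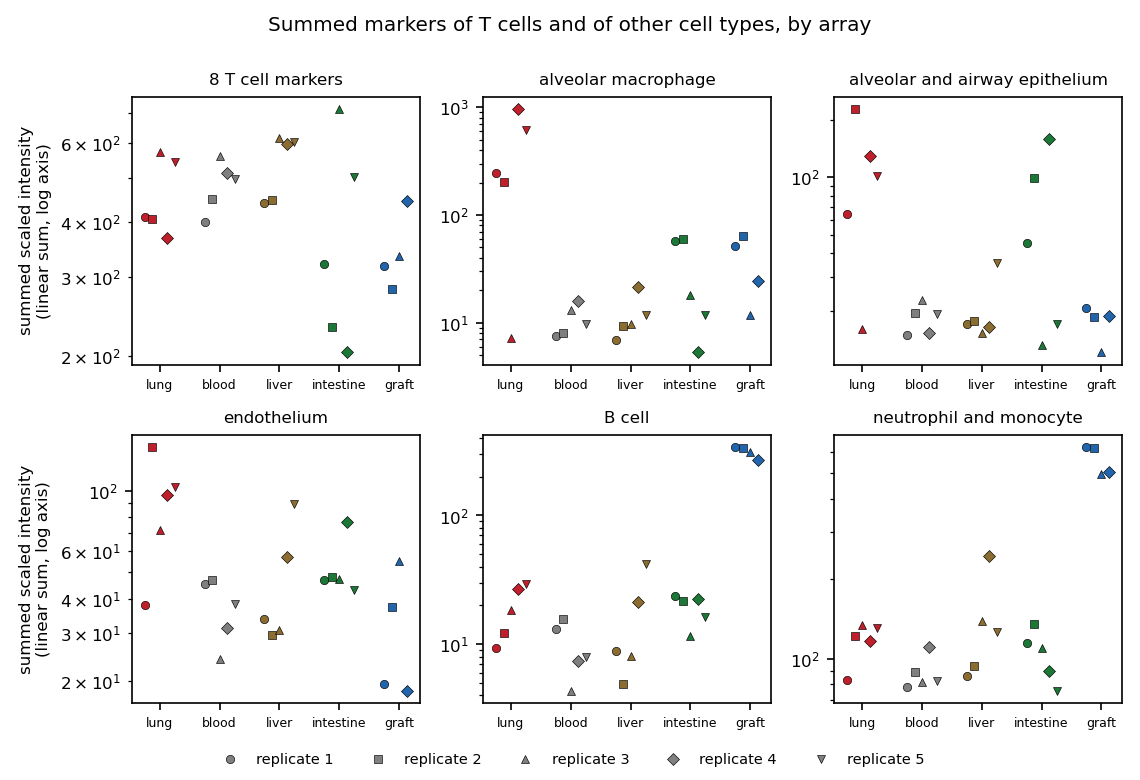
Summed linear scaled intensity of the 8 T cell markers and of 5 marker lists of other cell types on each array, by site, on a log axis, with a marker shape per replicate. Alveolar macrophage markers reached 961.5 in lung 4 and 7.2 in lung 3, and B cell and neutrophil markers were highest on the graft arrays.

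Lung was then set against the mean of blood, liver and intestine on day 4, where slide is shared within a replicate number. Of 9384 genes, 61 were higher in lung (0.650%) and 27 lower (0.288%), with a median difference of -0.09. With the slide as a fixed block the counts were 44 and 12. Those higher were led by lung tissue genes. Chil3, a chitinase-like protein of alveolar macrophages, had 6.71, 6.50, -2.16, 8.24 and 7.83 in lung, against a lowest, median and highest level of -3.56, -2.62 and 3.42 over the 15 arrays of the other sites, a difference of 7.20 ± 1.27 (adjusted p = 0.00413). Ear1 had 3.74, 3.09, -2.36, 6.31 and 5.46 in lung, against -4.12, -3.13 and -2.08 over those arrays (6.37 ± 0.78, adjusted p = 1.03e-04), and Sftpc 4.60, 6.99, 0.04, 5.29 and 4.51 in lung, against -1.89, -1.01 and -0.35 (5.35 ± 0.59, adjusted p = 4.44e-05). Lung 3 stood apart from the other lung arrays in all of these, near the level of the other sites. The SE of these genes pools the spread of all groups and understates the spread within lung, so their p-values are too small for lung. Ear2, Ear10, Ear12, Rnase2a, Krt79, Plet1 and Atp6v0d2 made up the rest of the 10 highest by fitted difference, with values between 4.60 and 6.77, and on the slide of lung 3 they lay 0.645 to 0.805 above the mean of its neighbours, against 3.34 to 10.3 on the other slides. Of the 13 alveolar macrophage markers 10 were called higher than at the other sites, and of the 10 epithelial markers 4. Markers that passed the background filter through lung alone were bound to lean this way.

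The Ear genes and Rnase2a belong to 1 family of ribonucleases with very similar sequences, so their probes may share signal. Chil3 and Ear2 were also well above background on all 4 graft arrays, with 4.59, 4.14, 1.31 and 2.92 for Chil3, and their differences between lung and graft were not called (2.18 ± 1.65, adjusted p = 0.311, and 2.94 ± 1.36, adjusted p = 0.0925). Without lung 3, both were called (4.08 (adjusted p = 0.0134) and 4.59 (adjusted p = 7.25e-04)).

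Among the 27 genes lower in lung than at the other sites were a costimulatory receptor and an enzyme of glycolysis. Tnfrsf4, which encodes the costimulatory receptor OX40, had 3.67, 4.43, 4.05, 2.36 and 2.32 in lung, against 3.67, 5.05 and 7.32 as lowest, median and highest over the other sites (-1.78 ± 0.43, adjusted p = 0.0471). Hk2, hexokinase 2 of glycolysis, had 1.83, 1.23, 0.50, -2.08 and -1.18 in lung, against 0.43, 2.11 and 3.77 (-1.98 ± 0.48, adjusted p = 0.0471), and Pdcd1lg2, which encodes PD-L2, differed by -1.94 ± 0.47 (adjusted p = 0.0471). Lung 4 and lung 5, the arrays with the highest summed alveolar macrophage markers, were the lowest for all these genes, and none of the calls held without lung 4 or without lung 5. Zkscan5, a zinc finger gene (-2.05 ± 0.32, adjusted p = 0.0011), had the lowest fitted difference and was called in all scalings, without lung 4 and without lung 5. Tnfrsf4 and Hk2 were nevertheless higher in lung than in graft (2.00 ± 0.55, adjusted p = 0.00657, and at least 1.71-fold, adjusted p = 0.00223). Comparisons of lung with graft and with the other sites share the lung arrays. The count against the other sites moved with single arrays: 31 higher and 3 lower without lung 4, 28 and 2 without lung 5, 99 and 22 without lung 3, 75 and 135 without lung 1, and 82 and 166 without intestine 4.

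**Figure D5:**
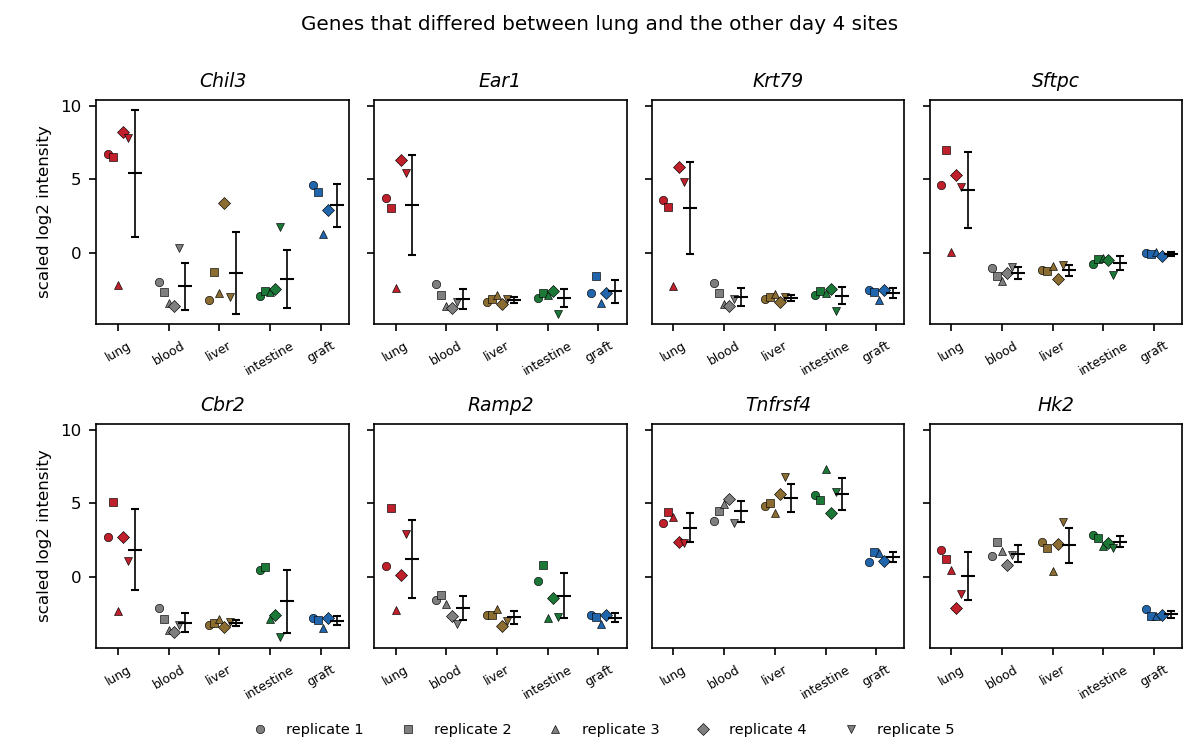
Scaled log2 intensity of 8 genes on each array of lung, blood, liver, intestine and graft, with a marker shape per replicate and the mean and SD beside each group. Chil3, Ear1, Krt79, Sftpc, Cbr2 and Ramp2 are high in lung except in lung 3, and Tnfrsf4 and Hk2 are lower in lung 4 and lung 5 than at the other sites.

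Lung 4 itself was described with no test. Against the median of the other 4 lung arrays it was furthest above for Pilra (4.32), Cybb (4.13), Sirpb1a (3.96), Ly86 (3.87), Clec7a (3.83), Nfam1 (3.67), Clec4n (3.52) and Lmo2 (3.46), most of them genes of myeloid cells, such as Cybb, which encodes the catalytic subunit of the phagocyte NADPH oxidase. Ly86 was still called lower in lung than in graft (-5.50 ± 1.26, adjusted p = 0.00143). Lung 5 was the next highest array for Pilra, Cybb, Sirpb1a and Ly86. Lung 4 was furthest below for Gldc (-5.66), Arhgef7 (-5.27), Etfdh (-5.09), Slmap (-4.68), Dis3 (-4.45), Ddx21 (-4.42), Man1a2 (-4.40) and Kpnb1 (-4.38), none of which was well above background there while all were on the other 4 lung arrays. It also had the smallest share of probes well above background among the lung arrays, 24.3%, next to 24.4% in lung 3, and the highest summed alveolar macrophage level. Whether these values go together was not tested.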

How the data were processed

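RNA from MACS-selected OT-I CD8+ T cells of 24 samples was hybridised in 1 colour to Agilent 4x44K arrays, with 44397 spots each, of which 1377 were controls and 43020 gene spots of 39429 probes. The deposited scanner files hold intensity values made by the authors with Agilent Feature Extraction, whose version the submitters' processing notes give as 10.7 and the headers as 9.5.1.1. The authors' deposited log2 table matched quantile-normalised, probe-centred values of the same arrays (lowest correlation 0.9997), which fixes its scale and direction, and was used as an alternative.

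Spots of a probe were averaged after control spots and flagged outliers were left out. Probes were named through RefSeq for 27508 by accession, 3544 by symbol and 404 by synonym, while 1083 kept the name in the file and 6890 had none. The log2 of the processed signal minus the 75th percentile of gene probes was fitted with limma 3.58.1 (R 4.3.3) on all 24 arrays with 5 group means. A probe was tested where it was well above background on all or all but 1 array of a group, which left 11211 probes and 9384 genes, each represented by its probe with the highest mean. Lung was compared with graft and with the mean of the other day 4 sites. Genes named are the 12 with the largest fitted differences (against values near background where a group had no signal) in each direction among called genes with no overlap between groups, up to 5 called genes per list by adjusted p with up to 2 against its direction, T cell checks, the 10 most different from the other sites each way, the genes furthest apart in lung 4, and the brightest markers. The members and lists were chosen with earlier results of these data known. Lung and graft were not taken as paired by replicate number. Deviations from the group means correlated by 0.26, -0.09, 0.07 and -0.35 between lung and graft arrays of the same number, which shows no pairing but cannot exclude it. Some named genes are not reported here. The fitting steps were tested on simulated data. Background correction, scaling, the filter, the probe rule, slide or replicate blocks, array weights and single arrays left out were tried as alternatives.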

Additional observations from a re-analysis of the deposited data

Results flagged for a closer look

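Among groups of 4 or 5 arrays, single arrays that lay apart from the rest of their group by Dixon's criterion were found for 38 of 572 gene groups and 7 of 92 list groups. Chance alone gives about 1 in 20 such groups. The values below are the gap to the nearest array divided by the range of the group.

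Lung 4 was the lowest lung array for 14 of the genes. Genes of the cell cycle and replication were among them, with Cdc20 at 0.744, Dut at 0.775, Rfc4 at 0.874 and Uhrf1 at 0.713. The others were Acaca (0.848) and Acadl (0.812) of lipid metabolism, Arhgef7 (0.890), Cd8a (0.731), Manf (0.770), Ndufa5 (0.737), the proteasome subunits Psmc1 (0.768) and Psmd8 (0.794), Ptpn22 (0.786) and the ribosomal protein Rps21 (0.791). Arhgef7 had been named for its low level in lung 4. Lung 4 was also lowest in the medians of the cholesterol and fatty acid synthesis list (0.730) and of the naive and quiescence list (0.860).

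Lung 3 was lowest for Chil3 (0.833), Ear2 (0.757), H2-Ab1 (0.729) and the median of the epithelial markers (0.712), and highest for Actn1 (0.745) and Hba-a2 (0.852). Lung 1 was highest for Tnfrsf17 (0.804) and the plasma cell markers (0.716), lung 2 for Mx2 (0.764) and lung 5 for Klra8 (0.889). Graft 4 was highest for Gzmb (0.942), Lgals1 (0.912), Cd3e (0.911), Ndrg1 (0.941) and the integrin list (0.955). Graft 2 was highest for Dut (0.948) and the mitosis list (0.894). Graft 3 was highest for Vstm2b (0.966) and Ebf1 (0.941), whose probes hold GGGGG, and for Xaf1 (0.906), and lowest for Cd14 (0.929), Cs (0.835), Cybb (0.860), Gapdh (0.844), Klrc1 (0.883), Ndufb9 (0.858) and the epithelial markers (0.874). Graft 1 was lowest for Cycs (0.858) and Ldha (0.920).

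For 28 named genes the difference between lung and the mean of the other day 4 sites passed the limma test. Beside Chil3 (7.20), Ear2 (6.77), Ear10 (6.54), Ear1 (6.37), Krt79 (6.01), Ear12 (5.87), Rnase2a (5.85), Sftpc (5.35), Plet1 (4.77) and Atp6v0d2 (4.60), these were Cbr2 (4.50), Fabp1 (3.99), Lpl (3.58), Sftpd (3.35), Ramp2 (3.28), Sftpa1 (3.14) and Sirpb1a (2.45). Those lower in lung were Zkscan5 (-2.05), Hk2 (-1.98), Pdcd1lg2 (-1.94), Tnfrsf4 (-1.78), Tmem33 (-1.68), Rpf1 (-1.64), Thap12 (-1.58), Stil (-1.56), Sart1 (-1.55), Rangrf (-1.54) and Herpud1 (-1.40). All but Cbr2, Fabp1, Lpl, Sftpd, Ramp2, Sftpa1, Sirpb1a and Herpud1 had been picked for this very difference. For the picked genes, passing the test is therefore no separate result. Over all tested genes, 0.650% were called higher than at the other sites and 0.288% lower.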

How the results depend on the processing

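Of 286 named genes, 195 kept their direction and their side of the threshold against graft under all 24 to 25 alternatives run, as did 11 of 20 against the other sites under 36 to 37. Calls against graft numbered 2894 to 3618 when single lung or graft arrays were left out (1983 to 2555 higher, 868 to 1063 lower), and 3397 to 3877 when single arrays of the other sites were (2654 and 1223 without intestine 4). At an adjusted p under 0.01 they numbered 2325, with 695 lower. Higher calls moved to 1531 and 1373 with the median and 75th percentile of detected probes and to 1542 with T cell marker scaling. Lower calls moved to 1713 (quantile), 1712 (deposited table), 2480 and 2488 (detected probes) and 1648 (array weights). The cause was not tested. Lung and graft were not taken as paired, and with the replicate as a block 2288 genes were higher and 1115 lower (60 and 27 against the other sites).

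Calls against the other sites, 88 in all, ranged from 30 to 248 when single arrays were left out (28 to 99 higher, 2 to 166 lower). They numbered 56 with normexp (12 lower), 39 with T cell marker scaling (28 higher, 11 lower), 22 with probes well above background on every array of a group (16 and 6), 48 with the day 4 groups alone (39 and 9), 203 with array weights (120 lower), 56 with the slide as a fixed block (12 lower), 38 without lung 4 and intestine 4 (30 and 8) and 29 at an adjusted p under 0.01 (27 and 2). Lower calls were 17 with quantile normalisation, in the deposited table and with no filter. Without lung 1 there were 75 higher and 135 lower, without intestine 4 82 and 166, without lung 3 99 and 22, and without lung 4 and lung 5 in turn 31 and 3, and 28 and 2.

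With the mean of the probes of a gene, Npm1 turned to 0.081 and Tnfrsf9 to 0.95, and Tnfrsf9 was 5.39 with probes holding 5 GT in a row or GGGGG left out. Medians of lists minus that of all genes turned sign for T cell receptor signalling (0.041 with array weights, -0.25 to 0.051 without single arrays, above 0 without graft 4), for killer lectin-like receptors (-0.28 with normexp, -0.088 with array weights, -0.0019 to 1.36 without single arrays, below 0 without graft 3), for the BCL2 family (-0.16 with quantile normalisation and in the deposited table, -0.066 to 0.20 without single arrays, below 0 without graft 1) and for ribosomal proteins (0.074 with quantile normalisation, 0.069 in the deposited table). For ribosome biogenesis it was -0.087 and -0.089 in these, and -0.11 to 0.13 without single arrays, below 0 without lung 1, lung 2, lung 3 or graft 3. For glucocorticoid-induced genes it was -0.058 in both, and -0.20 to 0.36 without single arrays, below 0 without lung 1 or lung 2. For epithelial markers the median was -0.13 with the stricter filter. T cell marker scaling and leaving out these probes were chosen after seeing the data. Between 24.3% and 36.4% of probes per lung or graft array were well above background, which limits what could be compared.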

Other observations

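Other genes higher in lung than at the other day 4 sites, named after their values were seen, were of macrophages and lipid handling. Marco, a scavenger receptor, had 3.63, 4.10, -2.41, 6.42 and 4.42 in lung, against -3.17, -1.41 and 1.68 as lowest, median and highest over the other sites (4.51 ± 0.93, adjusted p = 0.0157). Cidec, a lipid droplet protein, differed by 3.61 ± 0.47 (adjusted p = 1.60e-04), Siglecf, a sialic acid receptor of alveolar macrophages and eosinophils, by 3.50 ± 0.77 (adjusted p = 0.0244) and Pparg, a nuclear receptor that alveolar macrophages need, by 2.42 ± 0.48 (adjusted p = 0.0123). Lung 4 was highest and lung 3 lowest in Marco. Gpihbp1, which carries lipoprotein lipase across capillary endothelium, differed by 1.49 ± 0.30 (adjusted p = 0.0144).

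Probe sequence went with the direction of the calls beyond the genes described. Of 33 tested genes whose probe holds 5 or more CA in a row, 23 were called higher than in graft and 1 lower, with a median of 1.18. Of the 8610 genes whose probe holds neither 5 GT in a row nor GGGGG, 25.2% were called higher and 11.3% lower, with a median of 0.12, and these held all 61 and 27 calls against the other sites. Among 1559 genes with several tested probes, 48 had probes called in both directions in lung against graft. Of 3455 tested genes with an SD of at least 0.8 over the arrays, 213 shared nearly the same centred profile with 5 or more others. The limit was a root mean square difference of 0.2. Of the 213, 137 were called higher than in graft and 56 lower, and the named ones were Tnfrsf9, Il15ra and Slc1a4. The cause of these patterns was not tested, and slide and group cannot be told apart.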
